A study of Mus musculus with 10 samples.

Results

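CIN85 is an adaptor protein, encoded by Sh3kbp1, and the 10 genes described here are Sh3kbp1 itself and genes for proteins that bind CIN85 or work beside it: Shkbp1, Cbl, Cblb, Sh3gl2, Sh3gl3, Sh3glb2, Synj2, Dab2 and Arap1. They were taken as every array probe whose annotated symbol is exactly one of these names, which gave 16 probes of the 20355 on the array and 10 of its 9930 named genes. Brain RNA of 5 male Cin85-/- mice aged 15 weeks was hybridised on 10 two-colour arrays against 1 pool of brain RNA from male wildtype (wt) mice of the same age, each mouse once with its own RNA in Cy5 and once in Cy3. The pool held 5 mice by the series design and 6 by the labelling protocol. The labels do not state the genetic background, the exons removed or the number of lines, and they attach the unexplained abbreviation Kdn to the mutant RNA.

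When a growth factor binds its receptor, Cbl proteins attach ubiquitin to the receptor, and CIN85 links Cbl to endophilins, which bend the membrane of forming vesicles. Synaptojanins then remove phosphates from membrane lipids so that the coat can come off, and cargo adaptors such as Dab2 choose which receptors enter. In brain, endophilin and synaptojanin are best known for recycling synaptic vesicles, and CIN85 for the uptake of receptors from the neuronal surface.

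Sh3kbp1 lies on the X chromosome, and the RefSeq annotation of GRCm38.p6 gives it transcript starts in 3 separate places, at 213.2 kb and 315.4 kb after the first. The 150 bases before each start are shown because a deletion, or a probe, can concern the transcripts of some starts and not of others; capitals mark every CG dinucleotide, which reads the same on both strands.
Sh3kbp1 first start, chrX:159627122-159627271, plus strand: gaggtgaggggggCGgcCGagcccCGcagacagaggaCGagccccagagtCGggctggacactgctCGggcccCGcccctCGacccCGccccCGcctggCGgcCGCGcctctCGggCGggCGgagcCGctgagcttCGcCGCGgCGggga
Sh3kbp1 second start, chrX:159840318-159840467, plus strand: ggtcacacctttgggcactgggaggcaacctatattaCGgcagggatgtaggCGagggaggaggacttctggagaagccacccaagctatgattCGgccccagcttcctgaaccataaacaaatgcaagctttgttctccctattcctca
Sh3kbp1 last start, chrX:159942543-159942692, plus strand: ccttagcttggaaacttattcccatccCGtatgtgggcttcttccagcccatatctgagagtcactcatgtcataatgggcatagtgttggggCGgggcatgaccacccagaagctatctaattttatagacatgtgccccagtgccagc
The first stretch holds 21 CG, the second 3 and the last 2. In the full windows of 300 bases (250 before the start and 50 after) the counts were 34, 6 and 2, and 7.73%, 56.4% and 85.9% of all 32851 annotated windows hold at least as many. The windows of the other 9 genes held between 2 CG (the upstream start of Dab2) and 43 CG (Cbl). Both Sh3kbp1 probes are annotated to a single RefSeq transcript of the 23 listed for the gene. The sources used here do not say which start or exon each probe reads, so a Sh3kbp1 value below is the value of a probe and not a check of the deletion.

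The arrays held 16816 to 19424 log2 ratios each, and 16939 probes had both arrays of at least 4 mice and were tested. The numerator of the ratios, and whether the columns with the mutant in Cy3 were turned to run the same way as the others, are not stated in the labels. The signs of the extreme values are given beside the second point. Each array repeats 1 extreme value, called a capped ratio. The offset of an array was set so that its distance from the capped ratio equals log2 of 100000. On 9 of 10 arrays the offset so defined was the most frequent ratio, to within 0.001. The capped ratios were positive on all 5 arrays with the mutant in Cy5 (65 to 100 probes each) and negative on all 5 with it in Cy3 (66 to 264 probes each). A capped ratio was defined as the repeated value furthest from 0 on its array, so by definition an array holds capped ratios of 1 sign only. Repeated extremes at the other end of the scale were not searched for. Whether the change of sign with the dye comes from turned columns or from the RNA in the channels was not tested. The pair mean, the mean of the 2 arrays of a mouse as deposited, is the main measure. Each mouse's dye term, the ratio with the mutant in Cy5 minus that with it in Cy3, divided by 2, was tested in the same way, and its mean is given for each tested probe of the 10 genes, because it is the difference from the pool if no column was turned. In either case the numerator stays unknown, so a positive value does not say whether mutant or pool was higher.

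Many ratios sat, to within 0.001, at the offset plus log2 of a ratio of 2 whole numbers up to 5 (1:1, 2:1, 5:1 and so on). Intensities were not analysed here, so how much signal lies behind such ratios is unknown. Such ratios made up 3.44% to 5.65% of 9 arrays and 10.2% of the array of mouse 3 with the mutant in Cy3, which also had the fewest values (16816) and the widest interquartile range (1.43 against 0.453 to 0.99). Of the 148 values of the 16 probes, 12 lay on these steps, 6 of them among the 13 values of that array and 6 among the 135 of the other arrays, and some can fall there by coincidence. A ratio carries no level, so the labelled tissue could not be checked by marker levels, and in tissue RNA fewer cells of a type and less RNA per cell cannot be told apart. Median pair means were 0.064 over 5 neuronal marker probes, -0.056 over 7 of astrocytes, 0.068 over 5 of oligodendrocytes, -0.15 over 2 of microglia, -0.32 over 3 of choroid plexus and 0.0075 over 4 of kidney. With the sign of the Cy3 columns turned they were 0.041, -0.045, -0.22, -0.18, -0.43 and -0.18 in the same order, so that of oligodendrocytes and that of kidney changed sign. None of these marker probes passed, in either reading, the threshold used below.

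None of the 14 tested probes of the 10 genes passed limma's threshold of adjusted p 0.05 for a difference from the pool, in a fit where 0% of all 16939 probes did. At an unadjusted p under 0.05 there was 1 of 14, for Cblb, where 3.73% of all probes passed (1.94% with a positive and 1.79% with a negative mean). With the Cy3 columns turned, 0 of 14 passed beside 0% of all probes, and 2 of 14, both negative, had an unadjusted p under 0.05 beside 27.6% of all (13.6% positive and 14% negative). The 95% intervals excluded a 2-fold difference for 14 of 14 probes in both readings (85.8% and 79.5% of all probes), and a 1.5-fold difference for 8 as deposited and 6 with the sign turned (60.7% and 38.9% of all). The median size of the pair means was 0.19 for these probes and 0.12 for all tested probes, and that of the dye terms was 0.19 and 0.26.

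**Figure D1:**
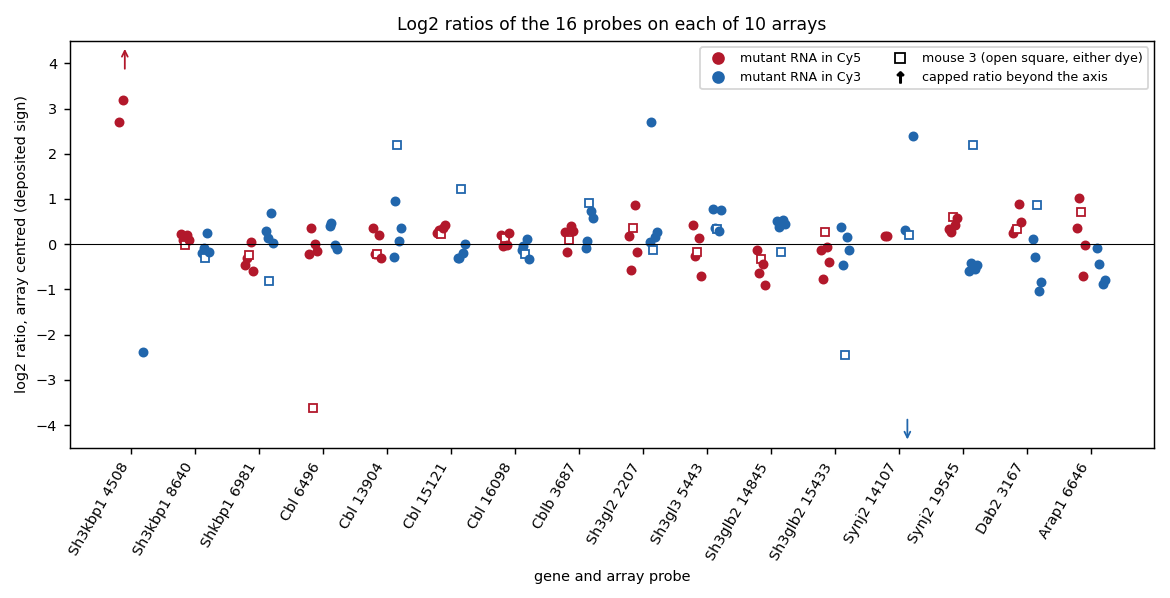
Log2 ratio (vertical axis, array median removed, deposited sign) of each of the 16 probes (horizontal axis) on every array that has a value; red points have the mutant RNA in Cy5, blue in Cy3, open squares mark mouse 3, and arrows mark capped ratios beyond the axis. Most points lie within 1 log2 unit of 0, and the mouse 3 points with the mutant in Cy3 reach 2.20 for Cbl 13904 and Synj2 19545 and -2.45 for Sh3glb2 15433.

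Sh3kbp1, the targeted gene, had ratios near 0 on its probe with values on all 10 arrays. Probe 8640 read 0.24, 0.10, -0.01, 0.20 and 0.092 in mice 1 to 5 with the mutant in Cy5, and -0.20, -0.089, -0.31, 0.24 and -0.18 in Cy3. Values of both orientations overlapped, through mouse 4. The mean of the pair means was 0.0082 ± 0.14 (SD, n = 5), with a 95% interval that covers 0.855-fold to 1.18-fold and an adjusted p (limma) of 0.989. The dye terms of the 5 mice were 0.22, 0.095, 0.15, -0.023 and 0.13, positive in 4 of 5, with a mean of 0.12 ± 0.089 (SD, n = 5), an interval of 0.927-fold to 1.27-fold and an adjusted p (limma) of 0.442. With 1 mouse left out, the mean pair mean lay between -0.045 (without mouse 4) and 0.051 (without mouse 3). Under neither reading, and with either sample as numerator, did the interval reach a 1.5-fold loss. None of its 10 values lay on the steps of small whole numbers. The spread of its pair means between mice was narrow, lower than that of all but 9.17% of tested probes.

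The other Sh3kbp1 probe, 4508, had values on 4 of 10 arrays, too few to test. It read 2.71 in mouse 2, 3.19 in mouse 4 and a capped ratio in mouse 5 on the Cy5 arrays, and -2.38 in mouse 4 on its Cy3 array (arrays are named here by the dye of the mutant). These signs follow the dye orientation, which is the pattern of a dye difference if the columns were turned and of a large difference from the pool if they were not. The deposited values in mouse 2 and in the Cy3 array of mouse 4 lay on the steps 5:1 and 1:3, values that 16 and 45 probes share on those arrays. Only the value 3.19 was neither capped nor on such a step. Among 233 probes with 4 values in both orientations, 53 (22.7%) were positive throughout in Cy5 and negative throughout in Cy3. In 4 (1.72%), this probe among them, every value was also at least 4-fold from 0. These conditions match the values of this probe, so the shares describe how common the pattern is and do not test it. Among all 3380 untested probes with values in both orientations, 8.2% had these signs and 0.74% the opposite ones.

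Shkbp1 encodes a protein that binds the SH3 domains of CIN85. Probe 6981 read -0.45, -0.31, -0.23, 0.046 and -0.58 in mice 1 to 5 with the mutant in Cy5, and 0.29, 0.15, -0.81, 0.69 and 0.036 in Cy3. In mice 1, 2, 4 and 5 the Cy3 value was the higher of the pair, and in mouse 3 it was the lower. The pair mean was -0.12 ± 0.33 (SD, n = 5), negative in 4 of 5 mice, with a 95% interval of -0.47 to 0.23 and an adjusted p (limma) of 0.913, and with 1 mouse left out it lay between -0.24 (without mouse 4) and -0.018 (without mouse 3). The dye term was -0.19 ± 0.27 (SD, n = 5), with an adjusted p (limma) of 0.373, and between -0.31 (without mouse 3) and -0.14 (without mouse 1) with 1 mouse left out. Its Cy5 value in mouse 1 lay on the step 4:5.

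Cbl and Cblb are RING-type ubiquitin ligases that mark activated receptors for uptake and degradation. Cbl had 4 probes, and they did not give a common value. Probe 16098 read 0.21, -0.032, 0.13, -0.025 and 0.24 in mice 1 to 5 with the mutant in Cy5, and -0.13, -0.04, -0.21, 0.11 and -0.33 in Cy3. By pair mean it was the steadiest of the 14 tested probes, at -0.0078 ± 0.045 (SD, n = 5) with an interval of -0.21 to 0.20. Its dye term was 0.11 ± 0.14 (SD, n = 5), a wider spread than the 0.089 of Sh3kbp1 8640. Only 0.236% of tested probes had as small a spread of pair means between mice. On probe 15121 the Cy5 values were 0.25, 0.32, 0.23, 0.35 and 0.43, and the Cy3 values -0.31, -0.31, 1.22, -0.19 and 0.008. Here all 5 Cy5 values were positive, 3 of 5 Cy3 values were negative, and the 1.22 of mouse 3 stood alone. Its pair mean was 0.20 ± 0.31 (SD, n = 5) and lay between 0.069 (without mouse 3) and 0.26 (without mouse 1) with 1 mouse left out. Its dye term was 0.11 ± 0.34 (SD, n = 5), and between 0.065 (without mouse 2) and 0.27 (without mouse 3).

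Probe 13904 read 0.35, -0.22, -0.22, 0.20 and -0.31 with the mutant in Cy5 and -0.29, 0.96, 2.20, 0.061 and 0.36 in Cy3. All 5 pair means of this probe were positive, from 0.0265 in mice 1 and 5 to 0.99 in mouse 3, with a mean of 0.31 ± 0.40 (SD, n = 5) and an adjusted p (limma) of 0.911. The value 2.20 of mouse 3 lay on the step 5:1, and without that mouse the mean was 0.14. The dye term of probe 13904 was -0.35 ± 0.60 (SD, n = 5), and -0.13 without mouse 3. Probe 6496 had -0.21, 0.35, -3.61, 0.004 and -0.14 with the mutant in Cy5, while its Cy3 values in mice 1, 2, 4 and 5 were 0.40, 0.47, -0.015 and -0.10. The value of -3.61 in mouse 3 had no swap partner and did not enter the pair mean, which was 0.095 ± 0.23 (SD, n = 4), or the dye term, which was -0.093 ± 0.14 (SD, n = 4). With all 10 arrays in the fit and a dye covariate, which takes it in, the value was -0.26, with an adjusted p (limma) of 0.915. Averaged over its 4 probes, Cbl had a pair mean of 0.17 ± 0.23 (SD, n = 5) and a dye term of -0.074 ± 0.26 (SD, n = 5), with an adjusted p (limma) of 0.918 for the first.

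Cblb was the gene with the smallest unadjusted p of the 10 as deposited. Probe 3687 read 0.27, -0.16, 0.088, 0.40 and 0.30 in mice 1 to 5 with the mutant in Cy5, and -0.088, 0.077, 0.92, 0.73 and 0.58 in Cy3. Mice 3, 4 and 5 had the high Cy3 values, and the orientations overlapped. The pair means were 0.092, -0.043, 0.50, 0.57 and 0.44, positive in 4 of 5 mice, with a mean of 0.31 ± 0.27 (SD, n = 5) and a 95% interval of 0.0017 to 0.62. The unadjusted p was 0.0491 and the adjusted p 0.911 by limma, so the value did not pass. With 1 mouse left out, the mean pair mean lay between 0.25 (without mouse 4) and 0.40 (without mouse 2). The unadjusted p (limma) was then 0.0552 without mouse 1, 0.0316 without mouse 2, and 0.111 to 0.150 without mouse 3, 4 or 5. The dye term had the other sign, -0.13 ± 0.21 (SD, n = 5), with an adjusted p (limma) of 0.474, and ranged from -0.21 (without mouse 1) to -0.061 (without mouse 3) with 1 mouse left out. None of its 10 values lay on the steps of small whole numbers.

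**Figure D2:**
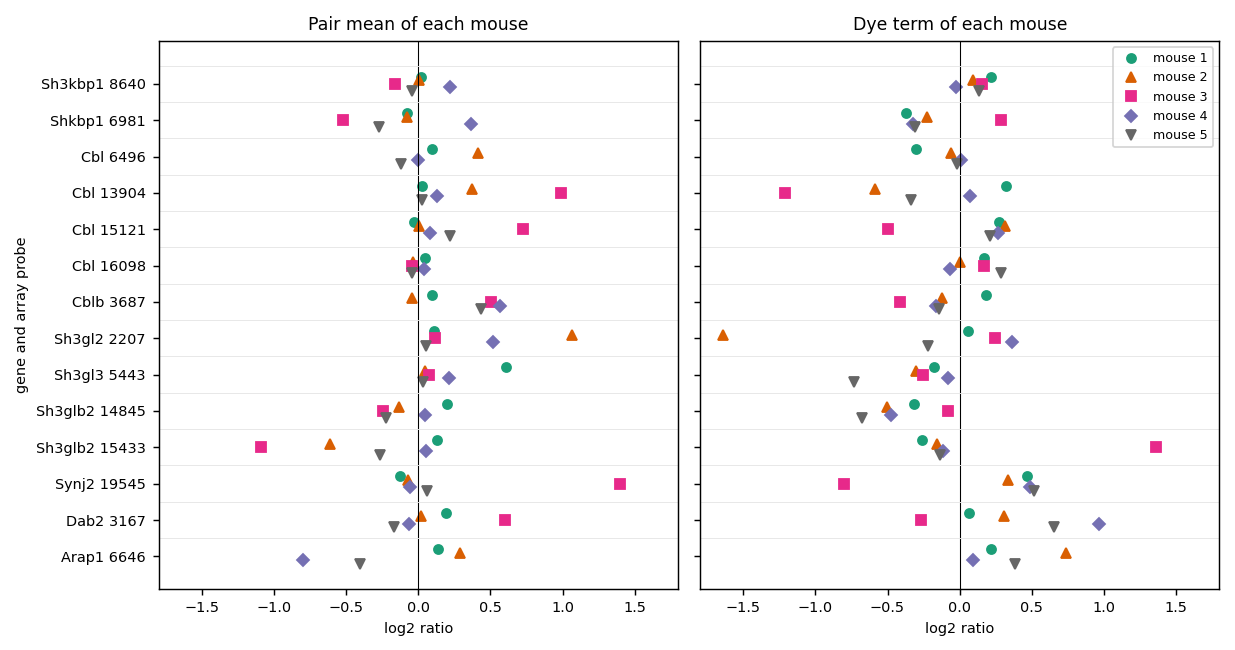
Pair mean (left) and dye term (right) of each of the 5 mice, in log2 ratio (horizontal axis), for the 14 tested probes (vertical axis); each symbol and colour is 1 mouse. Mouse 3 lies apart from the other mice for Synj2 19545 (pair mean 1.40) and Sh3glb2 15433 (dye term 1.36), and mouse 2 for Sh3gl2 2207 (dye term -1.64).

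Endophilins carry a BAR domain that bends membranes and an SH3 domain that recruits synaptojanin and dynamin; Sh3gl2 (endophilin A1) is the main form at synapses. Probe 2207 of Sh3gl2 read 0.17, -0.58, 0.36, 0.88 and -0.17 in mice 1 to 5 with the mutant in Cy5, and 0.052, 2.71, -0.13, 0.16 and 0.27 in Cy3. All 5 pair means were positive, at 0.11, 1.07, 0.12, 0.52 and 0.053, but the 2.71 on 1 array of mouse 2 set the highest. The mean was 0.37 ± 0.43 (SD, n = 5), with a 95% interval of -0.052 to 0.80 and an adjusted p (limma) of 0.911, and without mouse 2 it was 0.20. The dye term was -0.24 ± 0.81 (SD, n = 5), and its sign rested on mouse 2, without which it was 0.11. The value of mouse 3 with the mutant in Cy3 lay on the step 1:1.

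Sh3gl3, which encodes endophilin A3, was positive in every pair too. Probe 5443 read 0.43, -0.26, -0.18, 0.13 and -0.70 in mice 1 to 5 with the mutant in Cy5, and 0.79, 0.35, 0.33, 0.29 and 0.77 in Cy3. All Cy3 values were above 0, while 3 of 5 Cy5 values were below it, and in each mouse the Cy3 value was the higher. The pair means were 0.61, 0.049, 0.072, 0.21 and 0.031, with a mean of 0.19 ± 0.24 (SD, n = 5) and an adjusted p (limma) of 0.911, and without mouse 1 the mean was 0.09. The dye terms were -0.18, -0.30, -0.25, -0.082 and -0.73, negative in 5 of 5 mice, with a mean of -0.31 ± 0.25 (SD, n = 5), an unadjusted p of 0.0459 and an adjusted p (limma) of 0.175. Without mouse 5 the dye term was -0.20, a move of over 1.5 times. So the same measurements give a positive mean under one reading and a negative mean under the other, and neither passed.

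Sh3glb2 encodes endophilin B2, of the branch of the family found on internal membranes. Probe 14845 read -0.12, -0.63, -0.33, -0.43 and -0.90 in mice 1 to 5 with the mutant in Cy5, and 0.51, 0.37, -0.17, 0.53 and 0.45 in Cy3. All Cy5 values were negative and 4 of 5 Cy3 values positive, with mouse 3 the exception. The pair means nearly cancelled, at -0.072 ± 0.19 (SD, n = 5), with an adjusted p (limma) of 0.927, and ranged from -0.14 (without mouse 1) to -0.028 (without mouse 3). The dye terms were -0.32, -0.50, -0.078, -0.48 and -0.67, with a mean of -0.41 ± 0.22 (SD, n = 5), a 95% interval of -0.70 to -0.12, an unadjusted p of 0.0124 and an adjusted p (limma) of 0.11. Probe 15433 of the same gene had -0.14, -0.77, 0.27, -0.057 and -0.40 with the mutant in Cy5 and 0.39, -0.45, -2.45, 0.17 and -0.13 in Cy3. Its dye term had the opposite sign, 0.14 ± 0.68 (SD, n = 5), through mouse 3, whose -2.45 lay on the step 1:5, and without mouse 3 it was -0.17. The pair mean of this probe was -0.36 ± 0.50 (SD, n = 5), and -0.17 without mouse 3. Averaged over both probes, the gene had -0.21 ± 0.33 (SD, n = 5), with an adjusted p (limma) of 0.918.

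Synj2 encodes synaptojanin 2, a phosphoinositide phosphatase. Probe 19545 read 0.35, 0.26, 0.60, 0.43 and 0.58 in mice 1 to 5 with the mutant in Cy5, and -0.59, -0.41, 2.20, -0.55 and -0.45 in Cy3. Without mouse 3 the orientations were apart, with 0.26 the lowest of the 4 Cy5 values and -0.41 the highest of the 4 Cy3 values. The 2.20 of mouse 3 was, to 3 decimals, the same deposited ratio as that of Cbl probe 13904 on this array, the step 5:1, which 53 probes share there, and the -0.41 of mouse 2 lay on the step 2:3. The pair mean was 0.24 ± 0.65 (SD, n = 5) with mouse 3 and -0.048 without it, and the dye term was 0.20 ± 0.56 (SD, n = 5) with mouse 3 and 0.45 ± 0.08 (SD, n = 4) without it. Leaving out mouse 1, 2, 4 or 5 instead gave dye terms of 0.12 to 0.17. None of the 4 values with and without mouse 3 passed (adjusted p by limma 0.911, 0.938, 0.564 and 0.0762). The other Synj2 probe, 14107, had 6 values, with both arrays in mice 1 and 2 only, and was not tested. They were 0.18 in mice 1 and 2 on the Cy5 arrays, and on the Cy3 arrays 0.32 in mouse 1, a capped negative ratio in mouse 2, 0.20 in mouse 3 and 2.39 in mouse 5. The last 2 lay on the steps 5:4 and 5:1.

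Dab2 is a clathrin adaptor that brings receptors of the LDL receptor family, among other cargo, into coated pits. Probe 3167 read 0.26, 0.33, 0.33, 0.90 and 0.49 in mice 1 to 5 with the mutant in Cy5, and 0.13, -0.29, 0.87, -1.03 and -0.83 in Cy3. All Cy5 values were positive, and the Cy3 values spread on both sides of 0, from -1.03 in mouse 4 to 0.87 in mouse 3, the latter on the step 2:1. The pair mean was 0.11 ± 0.30 (SD, n = 5), with an adjusted p (limma) of 0.912, and lay between -0.0071 (without mouse 3) and 0.19 (without mouse 5). The dye term was 0.34 ± 0.48 (SD, n = 5), positive in 4 of 5 mice, with an adjusted p (limma) of 0.283, and lay between 0.19 (without mouse 4) and 0.50 (without mouse 3).

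Arap1 is a GTPase-activating protein for Arf proteins that acts in receptor trafficking. Probe 6646 had 0.35, 1.03, 0.70, -0.71 and -0.021 in mice 1 to 5 with the mutant in Cy5, and -0.077, -0.45, -0.89 and -0.78 in mice 1, 2, 4 and 5 on the Cy3 arrays. All 4 Cy3 values were negative, and the Cy5 values went both ways; the -0.077 of mouse 1 lay on the step 4:3. Pair means divided 2 and 2, at 0.14, 0.29, -0.80 and -0.40 in mice 1, 2, 4 and 5, with a mean of -0.19 ± 0.50 (SD, n = 4) and an adjusted p (limma) of 0.911. The dye term was positive in 4 of 4 mice, at 0.36 ± 0.28 (SD, n = 4), with an adjusted p (limma) of 0.198, and 0.23 without mouse 2. The pair mean was 0.0097 without mouse 4.

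**Figure D3:**
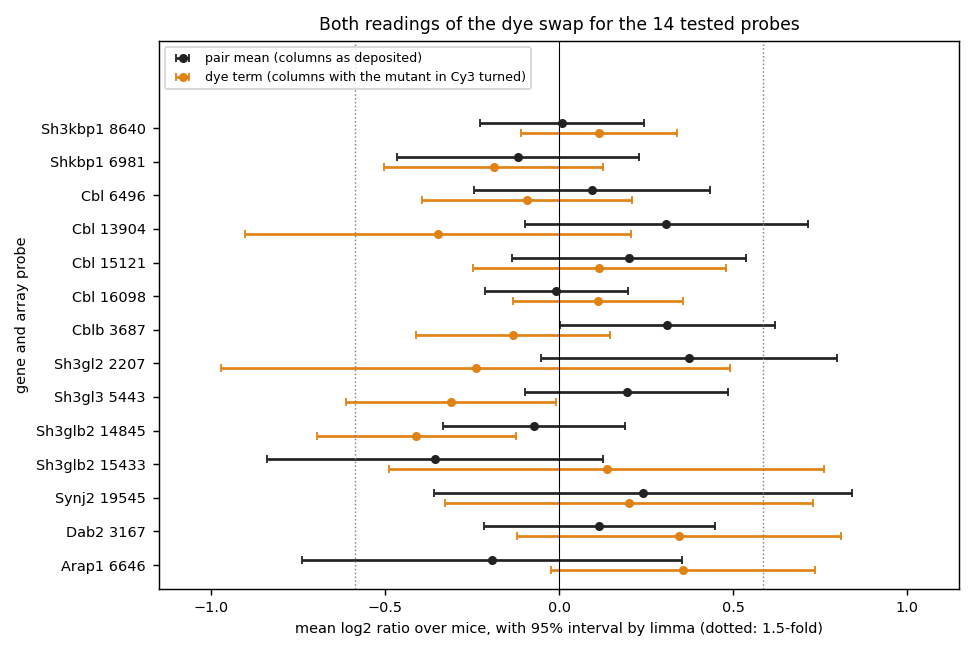
Mean log2 ratio over mice (points) with its 95% interval by limma (bars) for the 14 tested probes (vertical axis), as pair mean (black, columns as deposited) and as dye term (orange, columns with the mutant in Cy3 turned); dotted lines mark 1.5-fold. Every bar stays within 2-fold, and the bars that exclude 0 belong to Cblb 3687 as pair mean and to Sh3gl3 5443 and Sh3glb2 14845 as dye term.

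Some probes of the 10 genes separated by dye orientation once 1 mouse was left out. With all 5 mice, 0 of 12 probes with 10 values had orientations that did not overlap, where 15.1% of all such probes did not (6.59% with Cy5 above Cy3 and 8.55% with Cy5 below). Without mouse 3, chosen after its array was seen to stand apart, 4 of 14 did not overlap (Cbl 15121, Sh3glb2 14845, Synj2 19545 and Dab2 3167), where 31.3% of all probes did not. In 3 of 14, all of those named but Sh3glb2, the 4 Cy5 values were all above the 4 Cy3 values, where 17.1% of all probes had this. Leaving out mouse 1, 2, 4 or 5 instead, also chosen after seeing the data, left 2, 0, 2 and 0 of 12 without overlap, where 24.7%, 18.6%, 17.6% and 19.5% of all probes had none. With all 10 arrays as units, the mouse as a random block, a dye covariate and the Cy3 columns turned, 1 of 14 probes passed, Sh3glb2 14845 at -0.41 with an adjusted p (limma) of 0.0361, where 12.1% of all probes passed. Without the mouse 3 array with the mutant in Cy3, a choice also made after seeing the data, 4 of 14 passed in that fit, where 25.5% of all did. They were Synj2 19545 at 0.47 (adjusted p = 0.00364), Sh3glb2 14845 at -0.47 (0.00835), Cbl 15121 at 0.26 (0.0264) and Dab2 3167 at 0.48 (0.0277), each by limma. The estimated correlation between the arrays of a mouse was 0.02 with 10 arrays and 0.076 with 9, so both fits count the arrays of a mouse almost as separate units, although 5 mice were measured. In the fit over mice without mouse 3, 0 probes passed. These terms are dye differences if the columns were turned, and 1 of 14 and 4 of 14 stand beside 12.1% and 25.5% of all probes.

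**Figure D4:**
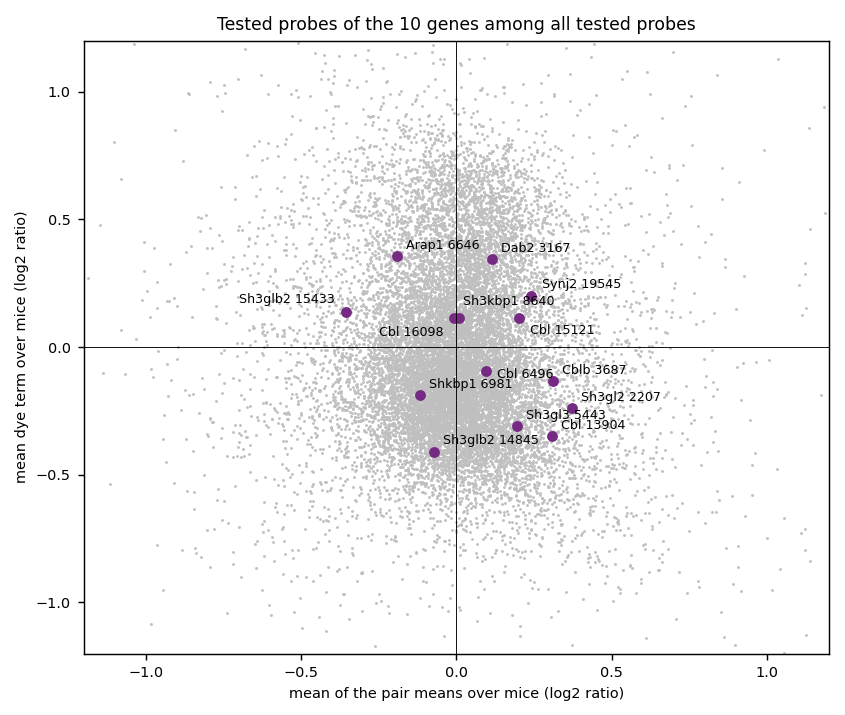
Mean pair mean (horizontal axis) against mean dye term (vertical axis), both in log2 ratio, for the 16939 tested probes (grey; points beyond 1.2 are not drawn) and the 14 tested probes of the 10 genes (purple, named). The named probes lie inside the cloud of all probes, from -0.36 to 0.37 across and from -0.41 to 0.36 up.

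Signs were also compared between mice. As deposited, 3 of 12 probes had the same sign in all 5 mice (Cbl 13904, Sh3gl2 2207 and Sh3gl3 5443, all positive), where 7.01% of all probes did; with the sign turned, 2 of 12 did (Sh3gl3 5443 and Sh3glb2 14845, both negative), where 30.5% of all did. Means were positive for 9 of 14 probes as deposited and 7 of 14 with the sign turned, where 50.1% and 43.6% of all probes were positive. The 14 probes belong to 10 genes and share the pool, so they are not independent.

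Over the 9406 named probes with a value on all 10 arrays, the 5 genes closest to Sh3kbp1 probe 8640 were Btf3, Timp3, Cbl through probe 16098, Prm2 and Enoph1. Their root mean square differences from it over the 10 arrays were 0.124, 0.126, 0.131, 0.161 and 0.162 log2 units, against a median of 0.595 over all compared probes. Probes with ratios near 0 on every array are close by this measure. The other probes of the 10 genes with a value on all 10 arrays lay from 0.442 (Shkbp1 6981) to 0.963 (Sh3gl2 2207) away. Sh3kbp1 4508, Cbl 6496, Synj2 14107 and Arap1 6646 lacked values and were not compared.

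Further genes of the same route were taken from 5 lists with 83 names, of which 49 genes were tested through 83 probes. Of these probes 50 were positive and 33 negative, and the median was 0.046 beside 0.0006 over all tested probes. None passed by limma, and 3 (3.61%) had an unadjusted p under 0.05 beside 3.73% of all. With the sign turned 32 were positive and 51 negative, and the median was -0.085 beside -0.064 over all probes, 0 passed, and 25 (30.1%) had an unadjusted p under 0.05 beside 27.6%. The counts by list follow as deposited, then with the sign turned.

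Other proteins that CIN85 binds, or that signal beside it, had 16 positive and 5 negative probes of 13 genes with a median of 0.083, and turned 10 and 11 with a median of -0.051. In that list Sos1, which activates Ras, gave 0.65 ± 0.78 (SD, n = 4), and turned -0.69 ± 0.11. The list of endophilin relatives, dynamins and their partners had 7 positive and 6 negative probes of 7 genes, and turned 6 and 7. Dnm1 was its only tested dynamin gene, and Synj1, the gene of synaptojanin 1, had no tested probe. Probe 2528 of Pacsin2, a membrane-bending F-BAR protein, gave 0.66 ± 0.46 (SD, n = 4), and turned -0.43 ± 0.25. The other tested Pacsin2 probes gave -0.251 and -0.265, and turned 0.39 and -0.0076. Cargo adaptors related to Dab2 had 12 positive and 8 negative probes of 12 genes, and turned 7 and 13. Probe 15762 of Hip1, which links clathrin to actin, gave 0.31 ± 0.21 (SD, n = 4), and turned -0.71 ± 0.46. The other tested Hip1 probes gave 0.19, -0.026 and -0.15, and turned -0.32, -0.12 and 0.55.

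Receptors on which Cbl or CIN85 act had 9 positive and 9 negative probes of 9 genes, and turned 6 and 12. Probe 8736 of the epidermal growth factor receptor Egfr gave 0.24 ± 0.14 (SD, n = 5), and turned -0.23 ± 0.10. The other tested Egfr probes gave 0.14, 0.31 and -0.029, and turned -0.0415, -0.30 and -0.092. Ubiquitin enzymes and sorting partners had 6 positive and 5 negative probes of 8 genes, and turned 3 and 8. Ube2d3, a ubiquitin-conjugating enzyme, gave -0.90 ± 0.40 (SD, n = 4), and turned -0.045 ± 0.98. Each of the 5 probes given with an SD had the smallest p of its list as deposited, with an adjusted p (limma) of 0.911. Turned, their adjusted p (limma) lay between 0.0988 (Sos1) and 0.948 (Ube2d3), so they are values and not changes.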

How the data were processed

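The deposited values are log2 ratios of two-colour arrays, which the authors made from brain RNA labelled indirectly with Cy3 or Cy5, per the labels' protocols; the sources used here do not give the scanner, background correction or normalization. Extreme repeated values were kept. The sources state neither the numerator nor whether swapped arrays were turned, so signs are those of the deposited scale.

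Each array was centred on its median. The 2 arrays of a mouse were reduced to a pair mean and a dye term, and each was tested against 0 with limma 3.58.1 in R 4.3.3, over 16939 probes with both arrays in at least 4 mice, with Benjamini-Hochberg adjustment and a threshold of 0.05. The procedure was tested on simulated data. The simulation drew independent normal pair means with each probe's spread, so it held no shared pool, dye swap or capped ratios. The pool is a single control RNA, so the tests leave out the spread between wildtype mice. Precision is limited by the number of mice and arrays.

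All probes of the 10 genes are given, and the 5 genes most like Sh3kbp1. From each further list, the probe with the smallest p is given where none passed, with the other tested probes of its gene. Gene symbols come from the platform annotation, and start sequences from RefSeq (GRCm38.p6), which lists the annotated transcripts of all 10 genes. The genes and lists were chosen with earlier results of these data known. Alternatives were no centring, scaling, other filters, each orientation alone, all arrays with the mouse as a block, and leaving out each mouse; leaving out the mouse 3 array and the ratios of small whole numbers was chosen after seeing the data.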

Additional observations from a re-analysis of the deposited data

Results flagged for a closer look

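Of 57 groups of 4 or 5 values (each probe's pair means, dye terms and both orientations), 12 had a highest or lowest value far from the rest by Dixon's test at 95%. Chance flags about 1 in 20 groups. Over all probes 7974 of 70653 such groups (11.3%) were flagged, 54% of them in mouse 3, beside 21.1% here; the difference was not tested. The groups overlap, since pair means and dye terms are made from the same arrays. Mouse 3 held 9 of the 12. Synj2 probe 19545 stood apart in mouse 3 on its array with the mutant in Cy3 (2.195), and with it in the pair mean (1.396) and the dye term (-0.799). Cbl probe 15121 did so in mouse 3 with the mutant in Cy3 (1.224) and in the dye term (-0.497). Sh3glb2 stood apart in mouse 3 through the dye term of probe 15433 (1.358) and the Cy3 value of probe 14845 (-0.169). Shkbp1 had its only positive dye term in mouse 3 (0.289), and Cbl probe 6496 its lowest Cy5 value there (-3.614). The other 3 were in mouse 2: Sh3gl2 probe 2207 with the mutant in Cy3 (2.71) and in the dye term (-1.6435), and the capped ratio of Synj2 probe 14107 (-16.431). The part of array quality in these values was not tested beyond the values given with the arrays.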

How the results depend on the processing

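Of 248 comparisons of a tested probe's mean with its value under an alternative, 216 kept the direction and the side of the threshold and 32 changed sign. None of the 14 means passed under any alternative with the columns as deposited. Under the other reading of the dye swap, Arap1 became 0.356, Cbl 13904 -0.348, Cbl 16098 0.113, Cbl 6496 -0.0929, Cblb -0.132, Sh3gl2 -0.240, Sh3gl3 -0.310 and Sh3glb2 15433 0.1375. With the mutant in Cy5 alone, Arap1 was 0.272, Cbl 13904 -0.0398, Cbl 16098 0.105, Cbl 6496 -0.721 and Sh3gl3 -0.116. With it in Cy3 alone, Dab2 was -0.230, Sh3glb2 14845 0.338, Sh3kbp1 8640 -0.107 and Shkbp1 0.0694. Scaling the arrays gave Cbl 16098 0.0141. All 10 arrays with the mouse as a block gave Cbl 6496 -0.227, and -0.260 with a dye covariate. Without the mouse 3 array with the mutant in Cy3, Cbl 16098 was 0.0031, Cbl 6496 -0.239, Dab2 -0.0217 and Synj2 19545 -0.0301. Without capped ratios and ratios of small whole numbers, Dab2 was -0.0071, and Synj2 19545 and Arap1 could not be tested. Leaving out 1 mouse at a time, means ranged from -0.353 to 0.0097 for Arap1, -0.0205 to 0.0015 for Cbl 16098, -0.011 to 0.167 for Cbl 6496, -0.0071 to 0.186 for Dab2, -0.0451 to 0.0508 for Sh3kbp1 8640 and -0.048 to 0.332 for Synj2 19545. Over all probes with the Cy3 columns turned, 0 passed by limma, against 257 with scaled arrays, 2363 with all 10 arrays and a block, 2054 with a dye covariate too, 4312 with block, dye covariate and the mouse 3 array with the mutant in Cy3 left out, and 4 without variance moderation; leaving out mouse 3 from the fit over mice gave 0. Beyond the units or arrays counted, the cause was not tested. No paired analysis was possible because there is 1 group of mice and 1 pool, so no groups share replicate numbers; the arrays of a mouse were joined within it.

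The main limits are the unstated numerator, the single pool, which leaves out differences between wildtype mice, and 5 mice. Probes 4508 of Sh3kbp1 and 14107 of Synj2 had too few values for a test. Intensities were not analysed here, so the signal behind a ratio is unknown. Leaving out mouse 3 moved 9 of 14 means by over 1.5 times, against 4, 4, 4 and 6 for mice 1, 2, 4 and 5, and changed no call; over all probes the shares were 62.8% for mouse 3 and 47.2%, 39.8%, 48.6% and 50.1% for the others.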
